A study of Mus musculus with 15 samples.

Results

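The Sox and Fox transcription factors were examined in the H3K4me3 landscape of the WT mouse amygdala. Members were the protein-coding genes of GENCODE M21 whose symbols are Sox or Fox followed by the usual number or letter and number. The rule gave 63 genes of 21938, comprising 19 Sox and 44 Fox genes. For each gene, summits of H3K4me3 peaks were searched within 1 kb of any transcription start site (TSS), called promoter summits, and inside the gene but over 1 kb from all of its TSSs, called body summits.

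The study compared adult male F1 hybrids of 129S1/SvImJ and C57BL/6J mice of 4 genotypes, which were WT, Kmt2a-HET (Kmt2a+/-), Kdm5c-KO (Kdm5c-/y) and the double mutant DM carrying both mutations. KMT2A writes and KDM5C erases H3K4 methylation. H3K4me3 ChIP-seq was performed on nuclei of microdissected amygdala in 11 samples, with 4 input samples. The list used here holds the WT peaks of 2 mice in 1 pooled call, so no spread between replicates exists, no test was made and no p-value is given. The mutant samples were not analysed here.

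The list held 24139 summits of 1 bp on chromosomes 1 to 19, X and Y. Each has a score, taken as the −log10 q-value of MACS2, with a median of 102.3 and quartiles of 15.0 and 201.2. A score states how strongly a summit stood out from the input and is not an amount of the mark, and the depth behind it is not given by the list. The 24139 summits shared 5974 distinct scores, so equal scores at different genes recurred. In a tissue of mixed cells, a low score from few cells carrying the mark and one from less mark per cell cannot be told apart.

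H3K4me3 is placed around the start sites of active genes and of many genes with CpG-rich promoters, and it is usually weak or absent at CpG-rich developmental genes held silent by Polycomb. Sox proteins bind DNA through a high-mobility-group domain and often act with partner factors such as POU proteins. Fox proteins bind through a forkhead domain. Members of both families direct the fate of particular lineages, from neural stem cells and glia to endothelium, liver, thymus and germline, whereas the FoxK and most FoxO and FoxJ genes are used in many tissues.

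Members were sorted by known sites of expression into 27 brain-expressed genes (18 neural and 9 broadly expressed), 9 genes of vessels and ependyma, and 27 genes best known from other lineages. The last included genes of other neural regions such as thalamus, midbrain and retina. The classes were set with earlier results of these data known. Some genes, such as Sox13, Foxd1, Foxb1 and Foxm1, could be placed differently.

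The sequences just upstream of the outermost TSS show the range of promoter composition among these genes. Each run of 200 bases is given 5′ to 3′ along the gene's strand on GRCm38, with CG dinucleotides in capitals. Foxo3 had the highest and Foxb2 the lowest best promoter score among members with a promoter summit. Foxi3 and Foxr2 had the highest and the lowest CpG ratio among members with no promoter or body summit.
Foxo3, chr10:42276756-42276955, minus strand: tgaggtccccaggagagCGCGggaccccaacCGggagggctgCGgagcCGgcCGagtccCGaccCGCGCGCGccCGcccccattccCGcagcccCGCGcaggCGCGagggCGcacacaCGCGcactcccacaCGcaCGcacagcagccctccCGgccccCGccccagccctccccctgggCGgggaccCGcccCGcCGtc
Foxb2, chr19:16873806-16874005, minus strand: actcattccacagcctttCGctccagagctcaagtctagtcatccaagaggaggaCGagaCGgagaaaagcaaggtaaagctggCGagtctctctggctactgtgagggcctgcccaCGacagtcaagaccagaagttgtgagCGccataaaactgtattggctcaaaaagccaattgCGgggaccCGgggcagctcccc
Foxi3, chr6:70956331-70956530, plus strand: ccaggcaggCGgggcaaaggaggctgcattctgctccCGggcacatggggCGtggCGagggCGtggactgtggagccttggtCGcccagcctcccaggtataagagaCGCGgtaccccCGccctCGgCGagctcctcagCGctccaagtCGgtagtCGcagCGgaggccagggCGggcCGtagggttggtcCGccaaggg
Foxr2, chrX:153118586-153118785, plus strand: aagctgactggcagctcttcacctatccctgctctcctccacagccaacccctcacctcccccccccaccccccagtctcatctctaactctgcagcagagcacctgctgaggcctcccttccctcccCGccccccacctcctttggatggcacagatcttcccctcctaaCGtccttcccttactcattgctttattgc
The windows held 28 CGs at Foxo3, 8 at Foxb2, 18 at Foxi3 and 2 at Foxr2. Over all 21938 protein-coding genes the same window held a median of 7, with quartiles of 2 and 15, so the unmarked Foxi3 promoter was richer in CG than most promoters.

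As a family, the members carried promoter summits about as often as other genes, but with lower scores. A promoter summit was found at 40 of the 63 members (63.5%, Wilson interval 51.1 to 74.3, which covers counting error only), against 64.7% of all protein-coding genes. The median best promoter score was 94.8 (quartiles 23.0 and 175.0) at the members and 194.6 (129.8 and 230.2) at all protein-coding genes with a promoter summit. The best promoter score reached the median of the list at 17 members (27.0%), against 52% of all protein-coding genes. Of the Sox genes, 15 of 19 had a promoter summit, with a median best score of 68.6, and of the Fox genes 25 of 44, with a median of 100.7.

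The families divided by these lineage classes, which is a description and not a test of the classes. Of the brain-expressed members, 22 of 27 had a promoter summit (81.5%, 63.3 to 91.8), with a median score of 156.9, and 16 reached the median of the list. Of the vessel and ependyma members, 8 of 9 had one (88.9%, 56.5 to 98.01), with a median of 32.8, and 0 reached the median of the list. Of the other-lineage members, 10 of 27 had one (37.0%, 21.5 to 55.8), with a median of 16.5, and 1 reached the median of the list. The intervals cover counting error only and do not compare the classes, since genes are not replicates. The medians of the brain-expressed and the vessel and ependyma genes differ nearly as much as those of the brain-expressed and other-lineage genes. When body summits were counted too, all 27 brain-expressed and all 9 vessel and ependyma members had a summit, against 12 of the 27 other-lineage members (44.4%) and 67.6% of all protein-coding genes. Pairs of genes were then compared by the highest promoter or body score, with members lacking a summit set to 0. The 15 other-lineage members at 0 lie below every brain-expressed member, so presence alone decided their pairs. On this measure the brain-expressed gene was the higher in 96.98% of the 729 pairs with an other-lineage gene. It was also the higher in 97.1% of the 243 pairs with a vessel or ependyma gene. By promoter score alone these shares were 77.9%, with 11.7% of pairs tied at 0, and 77.0%, with 2.47% tied.

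Other families of developmental transcription factors gave a reference with few promoter summits. Hox genes, which pattern the body axis, had a promoter summit at 4 of 39 (10.3%), and Pax genes at 1 of 9 (11.1%). The best promoter score reached the median of the list at 0 genes of either family. When body summits were counted too, 7 of 39 Hox genes (17.9%) and 3 of 9 Pax genes (33.3%) had a summit. The share of other-lineage members on that measure was 44.4%.

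**Figure D1:**
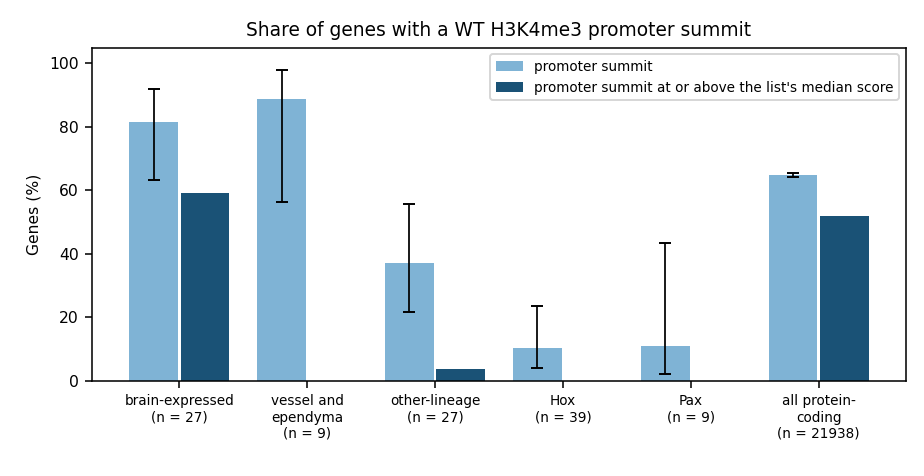
Percentage of genes (y axis) with a WT H3K4me3 promoter summit (light bars, with Wilson intervals for counting error) and with a promoter summit scoring at least the list's median of 102.3 (dark bars), by gene group. Light bars are at 81.5% and 88.9% for brain-expressed and for vessel and ependyma genes, whereas a dark bar is present at 59.3% for the first and at 0% for the second.

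Among the Sox genes of the neural lineage, scores differed within subgroups. In the SoxB1 subgroup of neural progenitor genes, Sox2 (ENSMUSG00000074637, chromosome 3, 34650405 to 34652461, plus strand), a gene of neural stem cells and astrocytes, had 1 promoter summit of 190.9 in its coding exon, 564 bp downstream of the TSS. Sox1 had a pair of promoter summits, the best at 146.6. Sox3 (chromosome X, 60891366 to 60893430, minus strand) had a promoter summit of only 6.20, higher than 10.9% of the list, and a body summit of 37.9 in its coding exon. The order was Sox2, Sox1 and then Sox3, the gene best known from progenitors and hypothalamus, whose higher summit was still below the list's median. Sox21, of the SoxB2 subgroup, scored 66.2, and Sox14, a gene of thalamic and midbrain interneurons in the same subgroup, 10.3.

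The glial SoxE genes spanned a wide range. Sox8 (ENSMUSG00000024176, chromosome 17, 25565892 to 25570686, minus strand) had the highest promoter score of all Sox genes at 202.0, 253 bp downstream of a TSS in an intron. The TSS of an antisense transcript, 2810468N07Rik, also lay within 1 kb of it. Sox9, which marks astrocytes, had a promoter summit of 117.7. Sox10, the regulator of oligodendrocyte identity, had no promoter summit. Its highest summit of 70.0 lay in a coding exon 1155 bp downstream of a TSS, and a second of 26.2 lay 1038 bp upstream, both just beyond the window.

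The SoxD genes, which lack a transactivation domain and act in neurons or the oligodendrocyte lineage, each had at least 2 promoter summits. Sox5 (ENSMUSG00000041540, chromosome 6, 143828425 to 144781977, minus strand) had 3, at scores of 158.4, 154.4 and 40.0, at internal as well as outer start sites. The best promoter scores of Sox13 and Sox6 were 99.6 and 98.7, just under the median of the list, as was that of Foxp2 at 100.7. The members just above it were Sox9 at 117.7, Foxn2 at 136.6 and Foxo4 at 138.4.

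Among brain-expressed Fox genes, the 4 highest promoter scores belonged to broadly used genes. Foxo3 (ENSMUSG00000048756, chromosome 10, 42181841 to 42276755, minus strand), a target of insulin signalling whose upstream sequence is printed above, had 1 promoter summit of 236.1, 392 bp downstream of a TSS and higher than 89.0% of the list. Foxk2 scored 227.9, Foxj2 224.7 and Foxk1 209.3. The TSS of an antisense transcript, Gm26826, lay 287 bp from the summit of Foxj2, whose own nearest TSS was at 184 bp. Foxj3 scored 190.6, but the TSS of the coding gene Frg2f1 lay closer to that summit, at 185 bp, than that of Foxj3 at 346 bp, so its assignment is uncertain. Foxn3 scored 178.0, Foxo4 138.4 and Foxn2 136.6. The median over the 8 broadly expressed members with a promoter summit was 199.97, close to the 194.6 of all protein-coding genes. All 8 are Fox genes. The 4 neural Fox genes with a promoter summit, Foxp1, Foxp4, Foxo6 and Foxp2, scored 193.1, 173.9, 155.4 and 100.7, within or below the range of the broadly expressed ones.

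Foxp1, Foxp2 and Foxp4, whose products form dimers and act in neurons, had several summits each. Foxp1 (ENSMUSG00000030067, chromosome 6, 98925338 to 99522721, minus strand) had 3 promoter summits at 193.1, 110.7 and 47.4, and 6 body summits in introns, between 3.63 and 23.1. Foxp2 (chromosome 6, 14901349 to 15441977, plus strand), known for its role in vocal learning, had 3 promoter summits at 100.7, 16.5 and 2.84, and a body summit of 59.9 that lay 1291 bp downstream of an internal TSS. Foxp4 had promoter summits of 173.9 and 73.2. Foxo6, the forebrain member of the FoxO subgroup, had promoter summits with a best score of 155.4.

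Foxp3, the FoxP gene of regulatory T cells, had a promoter summit of 90.8, 150 bp downstream of a TSS. TSSs of the antisense transcript Flicr and of the coding gene Ppp1r3f lay 194 and 454 bp from the summit, so the assignment to Foxp3 is uncertain.

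**Figure D2:**
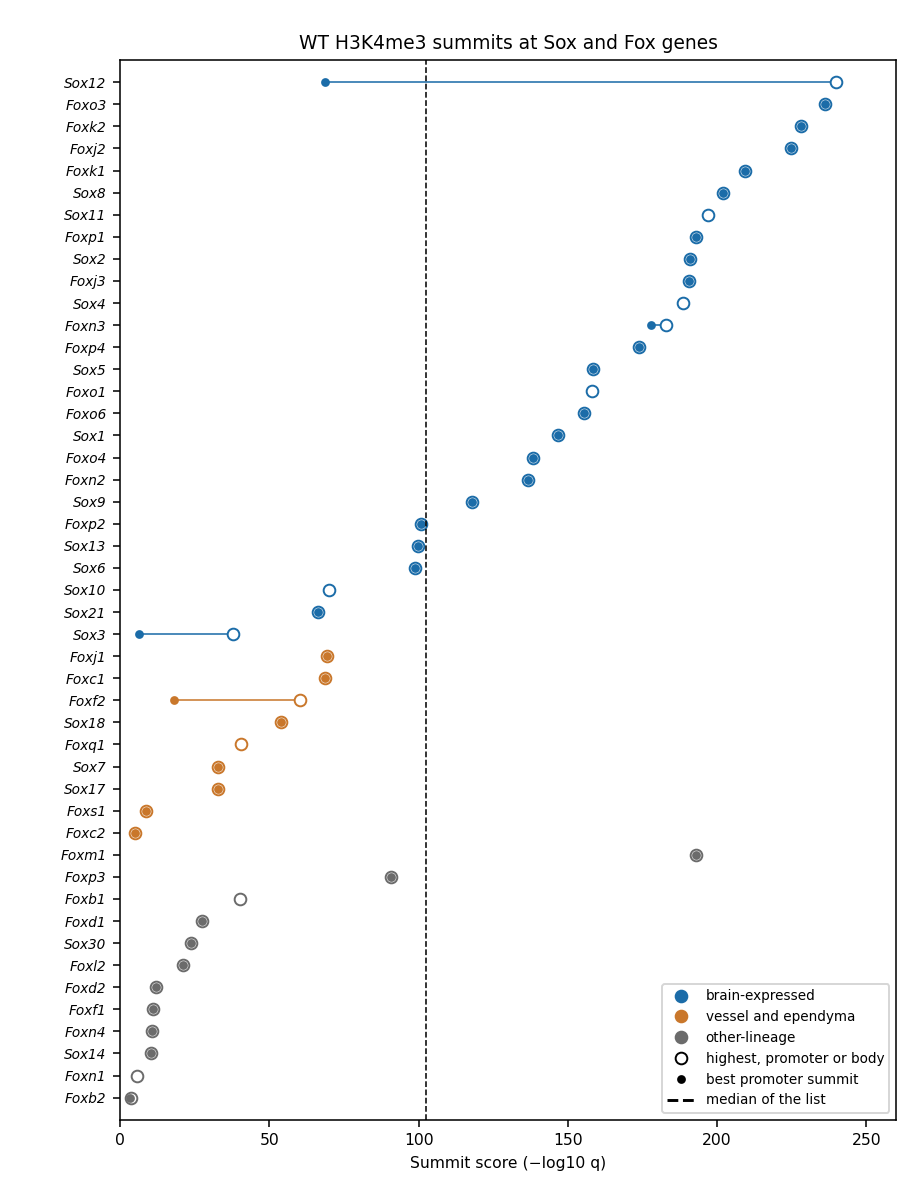
Scores (x axis, −log10 q) of 47 of the 48 members with a summit in promoter or gene body, grouped by lineage class; small filled points are best promoter summits, large open points the highest of promoter or body, and the dashed line is the list's median of 102.3. Brain-expressed genes fill the upper range, with Sox12, Sox11, Sox4 and Foxo1 reaching it through body summits, whereas Foxm1 is the only other-lineage gene above the line.

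Several brain-expressed members had their main summit downstream of the promoter window. Sox11, Sox4 and Foxo1 had no promoter summit but a body summit at or above the list's median within 5 kb downstream of a TSS. They were among 4 of 63 members with this arrangement (6.35%), against 0.88% of all protein-coding genes, or 193 genes. The highest summit lay over 1 kb from the gene's TSSs at 13 of the 48 members with a summit (27.1%), against 6.79% of all protein-coding genes with one. This was not particular to brain-expressed members, where it held at 8 of 27 (29.6%). It held at 2 of 9 vessel and ependyma members (22.2%) and at 3 of the 12 other-lineage members with a summit (25%).

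All 3 SoxC genes, which drive the differentiation of immature neurons, had this arrangement. Sox11 (ENSMUSG00000063632, chromosome 12, 27334264 to 27342574, minus strand) had a single summit of 197.1 at 1195 bp downstream of the TSS. Sox4 (ENSMUSG00000076431, chromosome 13, 28948919 to 28953713, minus strand) had a single summit of 188.7 at 1459 bp. Both lay in the coding exon of genes with 1 TSS. Sox12 (ENSMUSG00000051817, chromosome 2, 152393611 to 152398063, minus strand) had a promoter summit of 68.6 upstream of the TSS and a body summit of 240.0 in its coding exon at 1224 bp, the highest score of any member. By promoter summits alone, 1 of the 3 SoxC genes was marked, and with body summits all 3 were above the median of the list.

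Foxo1 (ENSMUSG00000044167, chromosome 3, 52268336 to 52353221, plus strand) had an intronic summit of 158.0 at 1532 bp. The DNA under 3 of these summits is given 5′ to 3′ along the gene's strand, 200 bases around the summit on GRCm38, again with CG in capitals.
Foxo1, chr3:52269768-52269967, plus strand: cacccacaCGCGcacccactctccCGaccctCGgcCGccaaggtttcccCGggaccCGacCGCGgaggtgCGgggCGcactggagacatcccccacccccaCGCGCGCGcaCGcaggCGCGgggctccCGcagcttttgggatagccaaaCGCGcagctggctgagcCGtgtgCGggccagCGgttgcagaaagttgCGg
Sox11, chr12:27341280-27341479, minus strand: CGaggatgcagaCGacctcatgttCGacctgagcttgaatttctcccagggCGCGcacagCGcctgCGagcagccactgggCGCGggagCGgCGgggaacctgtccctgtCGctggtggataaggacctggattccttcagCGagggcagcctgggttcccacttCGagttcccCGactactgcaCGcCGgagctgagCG
Sox4, chr13:28952155-28952354, minus strand: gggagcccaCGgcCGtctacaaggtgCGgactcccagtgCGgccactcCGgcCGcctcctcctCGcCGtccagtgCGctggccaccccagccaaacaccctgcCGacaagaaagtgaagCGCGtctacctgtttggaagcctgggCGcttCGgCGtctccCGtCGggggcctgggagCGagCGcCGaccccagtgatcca
These windows held 25 CGs at Foxo1, 18 at Sox11 and 20 at Sox4, more than the upstream window of most protein-coding genes (upper quartile 15), although those at Sox11 and Sox4 lie in coding sequence.

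**Figure D3:**
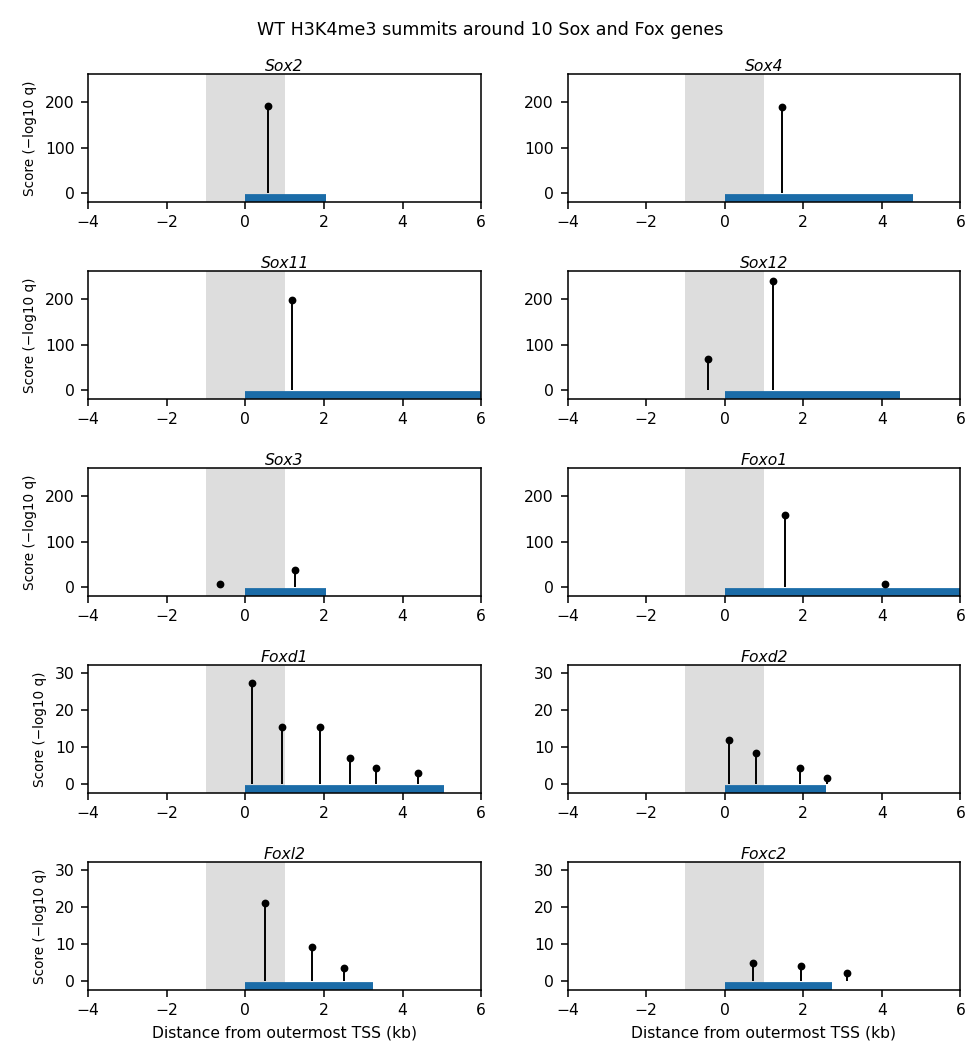
Summit score (y axis, −log10 q) against distance from the outermost TSS in kb (x axis) for 10 members; the grey band is the promoter window of 1 kb either side of that TSS, the blue bar the gene, and lower rows use a smaller y range. The summit of Sox2 lies inside the window at 564 bp, the high summits of Sox4, Sox11 and Foxo1 lie past it at 1459, 1195 and 1532 bp, and Foxd1 and Foxd2 show rows of low summits along the gene.

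At the limit of the window, the promoter summits of Foxn2 and Foxc1 lay 931 and 891 bp from a TSS, whereas those of Foxn3 and Sox11 at 1144 and 1195 bp counted as body summits. Best promoter summits of members had a median position of 242.5 bp downstream from the TSS, against 171 bp at all protein-coding genes. In the 11 one-exon members with a promoter summit the median was 556 bp.

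Genes of vessels and ependyma were almost all marked, at low to middle scores. The SoxF genes of endothelium had promoter summits at 53.9 (Sox18), 32.8 (Sox7) and 32.7 (Sox17). Foxc1 (ENSMUSG00000050295, chromosome 13, 31806633 to 31812476, plus strand), a gene of meninges and mural cells, scored 68.6. Foxf2, a gene of brain mural cells, had a promoter summit of 17.99 and an intronic summit of 60.2 at 1468 bp. Foxs1 and Foxc2 were lowest, at 8.78 and 4.85. Foxq1, a gene of brain endothelium, had no promoter summit and a body summit of 40.4 at 2247 bp downstream, where the TSS of the coding gene A530084C06Rik was 952 bp away. Foxj1 (chromosome 11, 116330704 to 116335399, minus strand), the regulator of motile cilia in ependyma, had the highest score of this group at 69.3.

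The markers of endothelium lay in the same range as the SoxF genes. The 6 endothelial markers Cldn5, Pecam1, Flt1, Kdr, Tek and Cdh5 all had promoter summits, with scores between 15.5 and 75.4 and a median of 32.4. Of 9 neuronal markers, 8 had a promoter summit, with a median of 236.2, and the ninth, Stmn2, had a body summit of 152.4. The medians were 93.2 over 6 astrocyte markers, 102.8 over the 7 of 8 oligodendrocyte markers with a promoter summit, and 15.9 over 6 microglial markers. Of 8 markers of liver, pancreas, muscle, skin, testis and T cells, 0 had a promoter summit, and Myh6 of heart muscle had a body summit of 2.73. Whether the share of each cell type sets the scores was not tested.

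Among other-lineage members, Foxm1 alone had a best promoter score at or above the list's median, and that summit lay near another gene. Foxm1 (ENSMUSG00000001517, chromosome 6, 128362967 to 128376146, plus strand), a gene of dividing cells, had a summit of 192.8 at 495 bp upstream of its TSS. The TSS of the coding gene Rhno1 was closer, at 107 bp, so this summit cannot be assigned to Foxm1 alone. Without Foxm1 and Foxp3, which were left out after their values were seen, 8 of 25 other-lineage members (32%) had a promoter summit, with a median of 11.5 and a highest score of 27.4. That score belonged to Foxd1, a gene of kidney stroma and hypothalamus. Sox30 of testis scored 23.6, Foxl2 of ovary and pituitary 21.1, Foxd2 12.02, Foxf1 of lung and gut mesenchyme 11.1, Foxn4 of retinal progenitors 10.7, and Foxb2 of thalamus 3.19. Foxb1, of thalamus and mammillary body, had a body summit of 40.1 as its highest, and Foxn1 of thymic epithelium an intronic one of 5.75, each without a promoter summit.

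No promoter or body summit was found at 15 members. These were the endoderm genes Foxa1, Foxa2 and Foxa3, the neural crest gene Foxd3, Foxd4, the thyroid gene Foxe1, the lens gene Foxe3, the Nodal mediator Foxh1, Foxi1, Foxi2 and Foxi3 of ectoderm and inner ear, Foxl1 of gut mesenchyme, Foxr1, Foxr2 and Sox15. All 15 were other-lineage members. The nearest summit lay between 1.14 and 107 kb from a TSS, with a median of 29.4 kb, and beyond 5 kb at 13 of them. The 2 exceptions were Foxa3 and Foxh1, whose nearest summits scored 181.7 and 185.3 and lay 248 and 288 bp from the TSSs of Sympk and Ppp1r16a. At Foxi3, whose upstream window holds 18 CGs, the nearest summit was 44.4 kb away, with a score of 5.74.

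Another gene's TSS lay within 1 kb of the best promoter summit at 13 of the 40 members with one (32.5%), against 30.1% of all protein-coding genes with one. Another coding gene's TSS did so at 3 of the 40 (7.5%), which were Foxj3, Foxm1 and Foxp3, against 18.4%.

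Neighbouring members on a chromosome could be compared directly. On chromosome 8, Foxf1, Foxc2 and Foxl1 lie within 46.3 kb (121084386 to 121130644). Summits at and between them scored between 2.28 and 11.1, except 1 of 236.9 that lay 210 bp from the TSS of Mthfsd. Foxl1 had no summit, and Foxf1 and Foxc2 had a best promoter score of 11.1 and 4.85. On chromosome 4, Foxd2 had summits up to 12.02 and Foxe3, in the same stretch of 19.7 kb, had none. On chromosome 13, Foxq1 and Foxf2 lie within 75.3 kb, where summits reached 60.2.

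Some low-scoring members carried a row of summits. A row was counted where at least 3 summits, with the gene's highest promoter or body summit among them, followed each other at gaps of up to 2 kb. Runs away from the highest summit were not counted. The brain-expressed genes Foxp1 and Foxp2 each had such a run of at least 3 summits. The counts of members are therefore lower limits for rows anywhere in a gene. Rows were found at 9 of 48 members with a summit (18.8%), against 1.47% of all protein-coding genes with a summit, or 218 of 14830. They were found at 4 of 9 vessel and ependyma members (Sox17, Foxf2, Foxs1 and Foxc2), at 4 of 12 other-lineage members (Foxd1, Foxd2, Foxl2 and Foxf1) and at 1 of 27 brain-expressed members (Foxk1). Where the highest summit was below the list's median, 8 of 26 members (30.8%) had a row, against 3.02% of all protein-coding genes below it. Hox genes had 0 rows among the 7 genes with a summit.

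Foxd1 (ENSMUSG00000078302, chromosome 13, 98354242 to 98359305, plus strand) had the longest row, with 6 summits over 4232 bp. From the TSS onwards they scored 27.4, 15.4, 15.4, 7.12, 4.45 and 3.01, so the score did not increase along the gene. Foxd2 had 4 summits over 2481 bp, at 12.02, 8.38, 4.45 and 1.80 from the TSS onwards. Foxl2 had 3, at 21.1, 9.11 and 3.63, and Foxc2 had 3, at 4.85, 4.09 and 2.28. In each of these 4 genes, the summit nearest the TSS scored highest and the last one lowest. The other 5 genes with rows did not show this order. Foxf2 had 17.99 upstream of the TSS and 60.2 in the body, Foxk1 76.5 upstream and 209.3 at 430 bp downstream, Sox17 17.2 at 246 bp from a TSS and 32.7 at 841 bp, Foxs1 5.51 at 260 bp and 8.78 at 811 bp, and Foxf1 11.1 upstream and 9.66 downstream. Of the uncounted runs, that of Foxp2 fell from its nearest TSS onwards, at 16.5, 9.05 and 6.54. That of Foxp1, at 15.4, 3.63 and 6.81, did not fall throughout. At Foxd2 and Foxc2 the last summit lay past the end of the annotated gene. Each line of the list spans 1 bp, so whether a row is 1 broad peak or several cannot be told apart.

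Members had more summits per gene than other genes did. At least 2 promoter summits were found at 16 members (25.4%), against 11.7% of all protein-coding genes. A body summit was found at 32 members (50.8%), against 14.7%. Most body summits were weak. The 62 body summits of the members had a median score of 8.95, and 6 reached the list's median, whereas 20 of the 59 promoter summits did. Of the body summits, 38 lay in introns, 18 in UTR exons and 6 in coding exons. The 5 members longer than 200 kb, Sox5, Sox6, Foxp1, Foxp2 and Foxn3, had a median of 5 body summits, between 2 and 10. The median was 1 over the 998 protein-coding genes longer than 200 kb. The members were longer, with a median length of 567925 bp against 327010 bp. Per 100 kb of gene, the medians were 0.88 body summits at the members and 0.19 at the 998 genes. At least 2 promoter summits were found at 4 of the 5 long members, against 35.8% of the long genes.

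Foxn3 (ENSMUSG00000033713, chromosome 12, 99190078 to 99563582, minus strand), a repressor used in many tissues, had 10 body summits, the most of any member. Of these, 9 scored between 2.48 and 28.7, and the highest, 182.9, lay 1144 bp downstream of a TSS near the start of the gene, above the promoter summit of 178.0 at an internal TSS.

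Other members had 1 or a few body summits below the list's median. Sox6 had 5, of which 1 scored 68.6 and the others between 1.95 and 11.1. Foxo6 had 1 of 60.8 in an intron, Sox21 1 of 45.3 in its UTR exon, and Foxc1 had 45.7 and 21.6, also in the UTR exon. Sox5 had 35.2 and 5.95 in introns, and Foxp4 had 16.2, 13.8 and 3.54. Besides the summits given above, body summits of 9.05 and 6.54 lay at Foxp2, of 7.12 at Foxo1 and of 3.28 at Sox10. Single body summits scored 15.0 at Sox13, 7.92 at Foxm1, 6.39 at Sox7, 6.20 at Sox17, 6.14 at Sox9, 5.95 at Foxk1, 4.39 at Foxj1 and 3.48 at Foxb2.

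Members had CpG-rich promoters in all 3 lineage groups. The ratio of observed to expected CpG over a window of 500 bp on each side of a gene's outermost TSS had a median of 0.83 at brain-expressed, 0.77 at vessel and ependyma and 0.65 at other-lineage members, against 0.55 at all protein-coding genes. Of the 15 members without a summit, 6 (40%) had a ratio of at least 0.6, against 3.996% of the 7108 protein-coding genes without one. Foxi3 and Foxd3, both at 0.82, were the highest of these 15. Conversely Sox10 had a ratio of 0.17 and Foxq1 of 0.24, and each had a body summit. Their highest summits lay 1155 and 2247 bp from the gene's nearest TSS, outside the window, and the ratio at the summits was not measured. Foxj3 had 0.18 at its outermost TSS, although its promoter summit lay at another. Over the 63 members, the ratio and the highest score, with 0 for no summit, had a Spearman rho of 0.51 and a Pearson r of 0.42. Over the 40 members with a promoter summit, the ratio and the best promoter score had a rho of 0.33 and an r of 0.23. Within the 27 brain-expressed members rho was 0.35 and r was 0.28 for the highest score. Over all protein-coding genes with a summit the values were 0.30 and 0.37. These genes share 1 list and are not independent, so the values are a description.

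**Figure D4:**
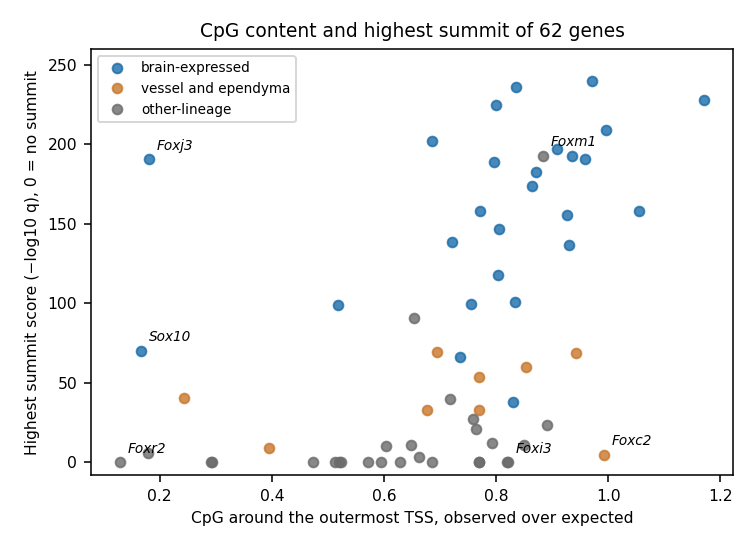
Highest promoter or body score (y axis, −log10 q, 0 where there was no summit) against the ratio of observed to expected CpG around the outermost TSS (x axis) for 62 of the 63 members, coloured by lineage class. Foxi3 has a ratio of 0.82 and no summit and Foxc2 a score of 4.85 at a ratio of 0.99, whereas Sox10 scores 70.0 at a ratio of 0.17. The summits of Foxc2 and Sox10 lie outside the window of the ratio.

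The regulators, partners and targets of these factors were scored from lists of known genes. For reference, 64.7% of all protein-coding genes had a promoter summit, 52% one at or above the list's median, and the median best promoter score was 194.6. All 10 FOXO regulators of the insulin pathway, including the kinases Akt1 (107.3), Akt2 (205.9) and Sgk1 (209.6) and the deacetylase Sirt1 (170.7), had promoter summits at or above the list's median, with a median of 207.7. Of 10 FOXO targets, 9 had one, with a median of 220.0, among them Klf6 (278.4), Gadd45a (248.3), the cell-cycle inhibitor Cdkn1b (209.3) and the superoxide dismutase Sod2 (211.5). The tenth, Irs2, had a body summit of 245.8. Of 10 partners and targets of Sox10 and Sox8 in myelination, 9 had a promoter summit, with a median of 102.8, including Cnp (192.4) and Mobp (99.0). The tenth, Olig1, had a body summit of 124.0. Of 9 genes of the Foxj1 cilia programme in the annotation, 8 had one, with a median of 123.9, including Rfx3 (200.2), the dynein gene Dnah9 (181.0) and Mcidas (36.1). Of 8 POU partners of Sox proteins, 4 had one, with a median of 162.5. Pou3f2 had only a body summit, of 159.5, and Pou4f1, Pou4f2 and Pou5f1 had neither.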

How the data were processed

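H3K4me3 ChIP-seq of amygdala nuclei was performed with native, micrococcal nuclease-digested chromatin. Per the Methods and the submitters' processing notes, the authors used Bowtie to map reads to mm10 with up to 2 mismatches and called peaks against the input with MACS2 version 2.1.0.20140616 at a q-value limit of 0.1. The authors deposited 1 pooled WT list of summits spanning 1 bp, whose score was taken as a −log10 q-value. The list does not name this scale, but its lowest score, 1.18, lies above the 1 that the limit implies.

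Genes and TSSs were taken from GENCODE M21 on GRCm38 (equivalent to mm10), and sequences from the RefSeq copy of GRCm38. Summits on 23 lines of other sequences were left out. Exons, UTRs and introns were taken from any transcript of the gene. Shares carry 95% Wilson intervals for counting error. No test was made, since summits and genes of a pooled list are not replicates. The depth behind the scores is not given by the list. The members, lineage classes and gene lists were chosen with earlier results of these data known. Described with their values were the 5 highest and 3 lowest best promoter scores of each class, members with at least 3 promoter summits or with body summits, brain-expressed members without a promoter summit and other-lineage members at or above the list's median. Other members named complete their subgroup. The values of 1 member are not reported here, and it is left out of the plots of single genes but kept in the counts. Alternatives covered the promoter window, TSSs, score threshold, joining of summits and the class of vessel genes. The counting was tested on simulated data. Python 3.11.15, numpy 2.4.6, scipy 1.17.1, statsmodels 0.14.6, pysam 0.24.0 and matplotlib 3.10.9 were used. The number of columns of per-sample values left unmatched was 0.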

Additional observations from a re-analysis of the deposited data

How the results depend on the processing

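The median score was highest for brain-expressed and lowest for other-lineage members under every alternative that changed the window, the TSSs or the joining of summits, but shares followed the promoter window. With 500 bp in place of 1 kb, 44.4% of members and 55.6% of brain-expressed members had a promoter summit, and 7 members in place of 16 had at least 2. With 3 kb, the shares were 76.2%, 96.3% and, for vessel and ependyma members, 100%, and 28 members had at least 2 promoter summits and 15 in place of 32 a body summit. Counting only summits at or above the list's median gave 27% of members, 59.3% of brain-expressed, 0% of vessel and ependyma and 3.7% of other-lineage members, medians of 191 over members and 193 over other-lineage members (Foxm1 alone, above the 184 of brain-expressed members), 3 members with at least 2 promoter summits and 6 with a body summit. With the outermost TSS only, 8 members had at least 2 promoter summits. After the data were seen, body summits were added, which gave shares of 76.2% of members, 100% of brain-expressed and 100% of vessel and ependyma members, and RefSeq TSSs, with which Foxq1 and Foxh1 gained a promoter summit and the vessel and ependyma share was 100%. The other 54 values stayed within their counting interval or within 1.5 times the main count. These alternatives changed the width of the window, or which summits or TSSs could count. Why the values moved was not tested. Depth limits low scores, and a member without a summit was not detected at this depth. No paired analysis was possible because both WT mice were pooled in 1 list, and for the same reason no replicate was left out.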
